A study of Homo sapiens with 39 samples.

Results

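The late part of a genome-wide CRISPR knockout screen is described here: the change in guide abundance between day 8 and day 14 of vemurafenib in A375 melanoma cells that already lacked MED12. The comparison uses 6 of the 39 libraries of the study, 3 at each day, paired by the replicate number in their labels. A375 is an established human melanoma line with an activating BRAF mutation, and vemurafenib inhibits mutant BRAF. All 6 libraries came from MED12 knockout cells that carried the whole-genome library and were kept in 2 µM of the drug. A further 3 pairs from the same cells grown in DMSO, the drug's solvent, at days 8 and 14 served as the control interval, and 6 libraries of an independent epigenetic library in MED12 knockout cells, at the same days and dose, gave a second measurement with other guides. The labels do not say how MED12 was disrupted, whether the line was a single clone, or whether the replicates were infected separately, so the spread between them may be partly technical. Guide counts from genomic DNA hold no RNA, and the cell type cannot be checked against expressed markers.

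In a pooled knockout screen each cell carries 1 guide, and the share of reads of a guide tracks the share of cells that carry it. A guide gains ground when the loss of its target lets cells outgrow the rest and loses ground when the target is needed. MED12 belongs to the kinase module of Mediator, the complex that links transcription factors to RNA polymerase II, and its loss is known for resistance to several kinase inhibitors. A late interval asks which further losses still change growth once the culture has already lived under the drug for 8 days, and the DMSO interval shows how much of that change also happens without the drug.

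The table holds 76441 gene-targeting guides for 19113 symbols and 1000 guides without a named target, and 19101 genes had at least 3 guides to test, 18831 of them exactly 4. The deposited files used here pair each guide with a gene symbol and a number, so guides are named that way. A relative change is the day 14 minus day 8 difference in gene score (the mean over a gene's guides of log2 CPM, read counts scaled to a common library size with TMM) minus the median of that difference over all genes, averaged over the 3 replicate pairs and given with its standard error (SE). CPM of a gene are summed over its guides. These CPM are on the TMM scale and are not shares of reads. The TMM factors were 1.16 to 1.25 at day 8 of vemurafenib and 0.467 to 0.540 at day 14. The same share of reads therefore gives a higher CPM at day 14, and a rise in CPM can go with a lower share. A call needs an adjusted p under 0.05 from edgeR's quasi-likelihood test per guide, with the replicate number as a block, combined per gene by rank aggregation and adjusted by Benjamini-Hochberg over all 19101 genes. Of these genes 1 was called (0.00524%), RBM15, which rose. None fell, while 1171 genes in either direction, 565 of them downward, had an unadjusted p under 0.05 against 955.05 that a uniform p would give, and DESeq2 also called 0 genes downward.

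RBM15 encodes an RNA-binding subunit that brings the m6A methyltransferase complex to its target transcripts. Its summed guides stood at 251, 507 and 303 CPM in the 3 day-8 vemurafenib libraries (replicates 1, 2 and 3) and at 1262, 2890 and 1808 CPM at day 14. Every day-14 library was above every day-8 library, and the gene had already climbed from 39.7, 69.7 and 51.6 CPM at day 0. All 12 combinations of 4 guides and 3 pairs were up, which for a guide means above the median change of all guides in that pair. Guide 1 went from 39.4, 244 and 54.7 CPM to 235, 1435 and 276 CPM. Guide 2 went from 30.9, 74.2 and 82.6 CPM to 235, 630.0 and 904 CPM. The other two guides lay between 70.3 and 95.7 CPM at day 8 and between 311 and 471 CPM at day 14. The relative change of the gene was 2.94 ± 0.04 (SE, n = 3 pairs; edgeR and rank aggregation, adjusted p = 0.000334), the highest value of any gene tested. RBM15 rose in the DMSO interval too, by 2.01 ± 0.02 (adjusted p = 8.87e-05, edgeR and rank aggregation). The extra gain under the drug was 0.93 ± 0.04 with all 3 pairs higher, and the test of that difference did not pass (adjusted p = 0.973). Without the replicate block RBM15 missed the threshold (adjusted p = 0.101), and no gene was called.

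The next genes in order of p did not pass. USP28, TP53BP1, MORC2, ISG20L2 and RPRD2 had adjusted p values between 0.0896 and 0.0909 (edgeR and rank aggregation). Their relative changes ranged from 1.51 ± 0.47 for ISG20L2, a nucleolar exonuclease gene, to 2.60 ± 0.18 for TP53BP1. All 3 pairs were positive for each. In reads, ISG20L2 rose through guides 2 and 3 (relative changes 2.78 and 2.60). Its guide 1 was at -2.40, and guide 4 scored 2.50 with at most 0.0279 CPM in any of the 6 libraries. ISG20L2 and RPRD2 were picked for mention after their values were seen. When the gene scores were centred on each library's median and tested with limma, an alternative chosen after seeing the data, 4 genes rose (0.0209%) and 0 fell (0%). Among these were RBM15 (adjusted p = 0.00125), USP28 (0.0209) and NF2 (0.0453).

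TP53BP1 and USP28 encode 53BP1, a chromatin protein of the DNA damage response, and a deubiquitinase that binds it, and together they are known to stop cells after a prolonged mitosis or the loss of centrosomes. TP53BP1 stood at 69.8, 77.2 and 135 CPM at day 8 and at 276, 504 and 1106 CPM at day 14, from 21.6 to 26.5 CPM at day 0. Each day-14 library was above all 3 day-8 libraries in summed CPM, and the relative change was 2.60 ± 0.18. Its guide 3 was at 0 in replicates 1 and 2 at both days, so the rise in summed CPM there came from the other 3 guides. The relative change still averages over all guides, and a guide at 0 on both days scores higher at day 14. Guide 3 thus counted as up in all 3 pairs, with a relative change of 2.22, and adds to the value of the gene without reads in those 2 replicates. USP28 went from 178, 139 and 211 CPM to 1202, 598 and 1257 CPM, a relative change of 2.29 ± 0.22 with 12 of 12 combinations up. CDKN1A, a cell-cycle inhibitor, had a relative change of 1.43 ± 0.14 (adjusted p = 0.634). In DMSO USP28 rose by 1.56 ± 0.09 (adjusted p = 0.00506, edgeR and rank aggregation), while TP53BP1 at 1.62 ± 0.14 did not pass.

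**Figure D1:**
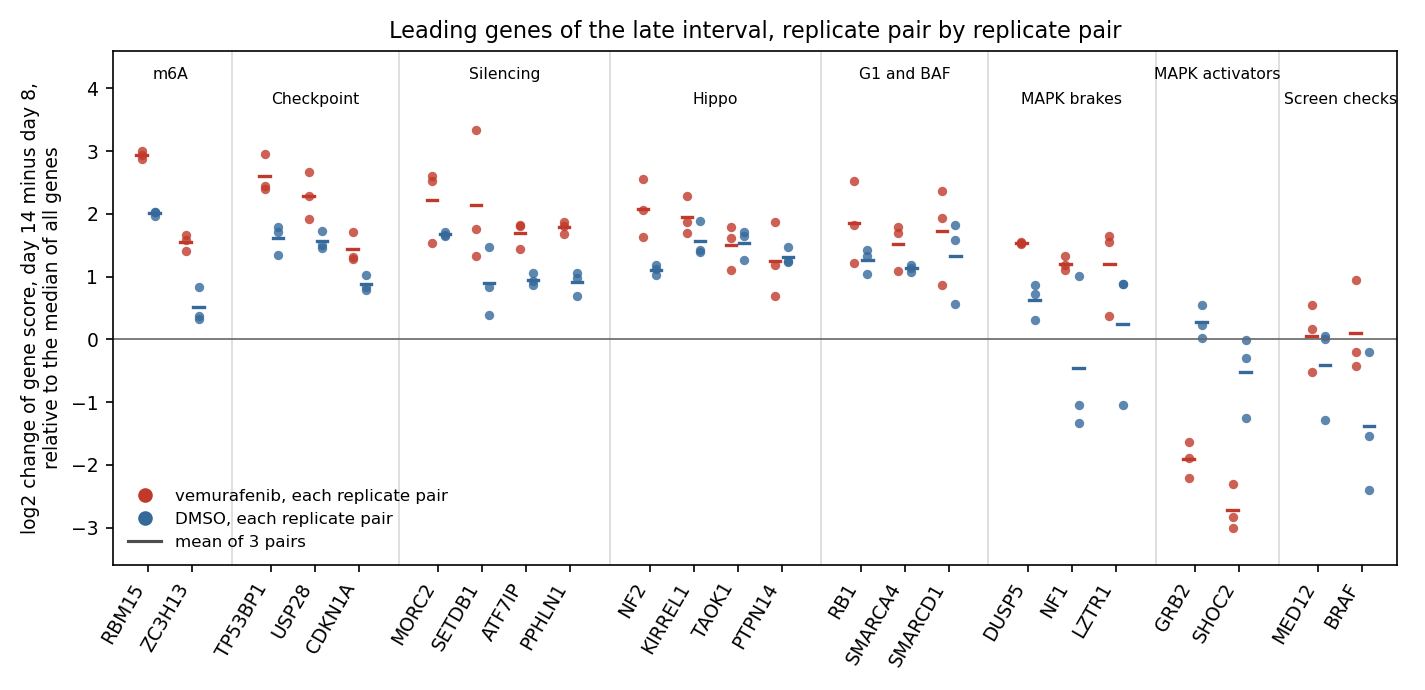
Relative log2 change of gene score from day 8 to day 14 (vertical axis) for named genes grouped by role, with red points for the 3 vemurafenib pairs, blue points for the 3 DMSO pairs and short lines for their means. RBM15 has the highest red mean, at 2.94, most of the genes to its right up to the MAPK brakes are above 0 in both arms, and GRB2 is below 0 in all 3 vemurafenib pairs and above 0 in all 3 DMSO pairs.

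MORC2, SETDB1, ATF7IP and PPHLN1 act in silencing of heterochromatin: SETDB1 writes H3K9 methylation, ATF7IP stabilises it, PPHLN1 (periphilin) and MPHOSPH8 are parts of the HUSH complex, and MORC2 is an ATPase that compacts HUSH targets. MORC2 went from 269, 127 and 151 CPM to 1684, 583 and 766 CPM. Its relative change was 2.22 ± 0.34, with 11 of 12 guide-pair combinations up. SETDB1 went from 141, 177 and 167 CPM to 721, 1416 and 948 CPM, and the 2 days did not overlap. The 3 pairs of SETDB1 spread widely, at 1.75, 3.34 and 1.32, which gives 2.14 ± 0.61. At day 14 its guide 3 stood at 0.0295 CPM in replicate 3 and at 62.9 CPM in replicate 2. ATF7IP had a relative change of 1.69 ± 0.12 and PPHLN1 of 1.78 ± 0.06, both higher in all 3 pairs. MPHOSPH8 reached 1.13 ± 0.16 and FAM208A (now TASOR, the HUSH scaffold) 0.75 ± 0.03, the latter picked after its value was seen. None of these passed in the whole-genome library under vemurafenib (adjusted p from 0.0909 for MORC2 to 0.684 for MPHOSPH8, edgeR and rank aggregation), and MORC2 rose in DMSO (1.68 ± 0.02, adjusted p = 0.0289). Of the 15 genes of the heterochromatin list 7 were higher in all 3 pairs and 4 lower, against 18.4% and 18.1% of all genes, with a median of 0.13 against -0.04 over all genes. TRIM28, the corepressor that recruits SETDB1, went the other way at -1.70 ± 0.78 and did not pass; it too was picked after its value was seen.

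**Figure D2:**
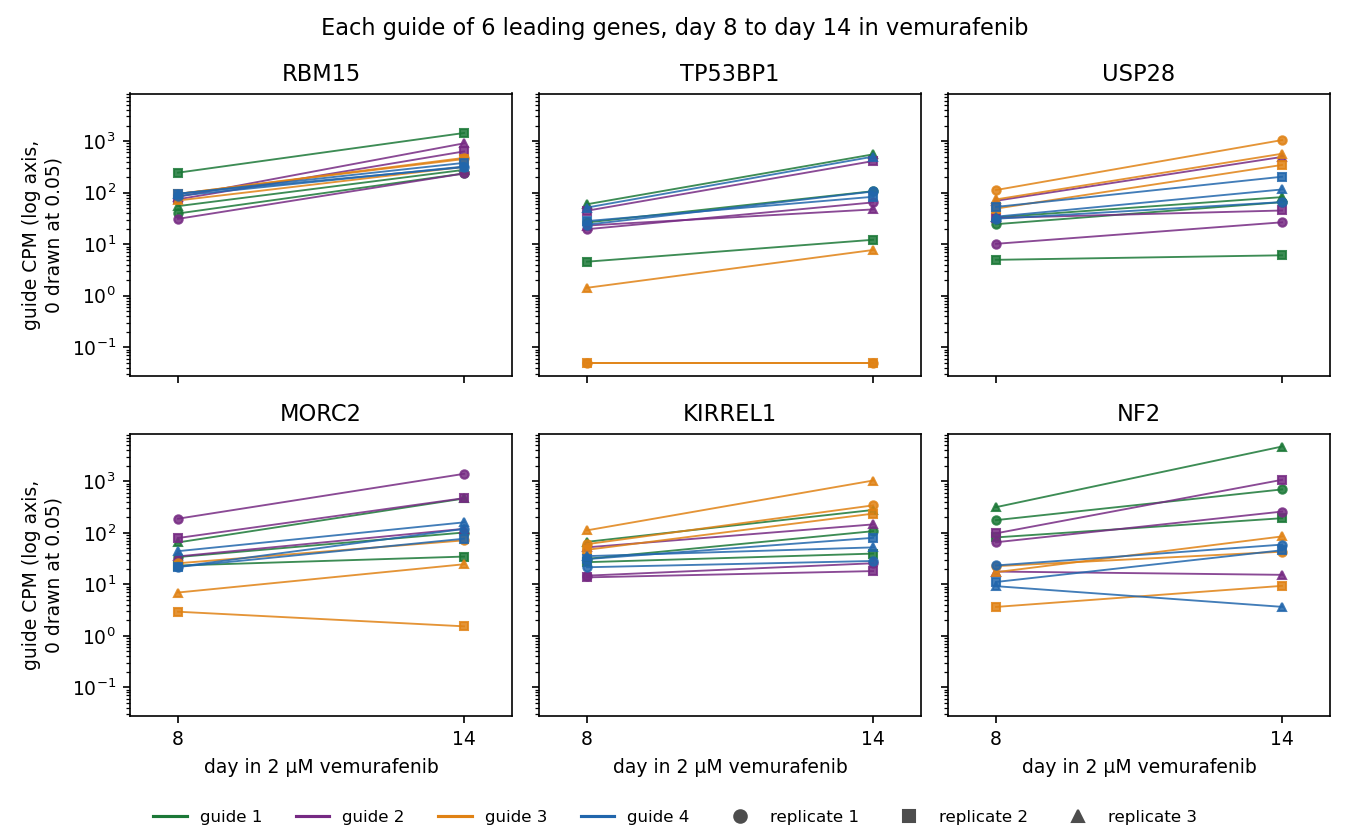
CPM of each guide (log axis, with 0 drawn at 0.05) at day 8 and day 14 of vemurafenib for 6 genes; colours mark guides 1 to 4, marker shapes mark replicates, and a line joins the same replicate at both days. All 12 lines of RBM15, USP28 and KIRREL1 go up, guide 3 of TP53BP1 is at 0 in 2 replicates, and for NF2 the day-14 values run from 3.66 to 4715 CPM.

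The Hippo pathway restrains the coactivators YAP and TAZ, and NF2, TAOK1, PTPN14 and the membrane protein KIRREL1 are among its brakes. NF2 went from 287, 194 and 358 CPM to 1054, 1313 and 4819 CPM. In replicate 3 guide 1 alone gave 4715 of the 4819 CPM, while guide 4 went from 9.22 to 3.66 CPM there. The relative change of NF2 was 2.08 ± 0.27, with 11 of 12 guide-pair combinations up (edgeR and rank aggregation, adjusted p = 0.217). KIRREL1 went from 128, 118 and 266 CPM to 502, 373 and 1507 CPM, and all 12 combinations were up (1.95 ± 0.17, adjusted p = 0.148). It rose in DMSO by 1.57 ± 0.16 (adjusted p = 0.0031). TAOK1, a kinase upstream of the Hippo core, had 1.50 ± 0.21 under the drug and 1.54 ± 0.14 in DMSO, and PTPN14, a phosphatase that retains YAP outside the nucleus, had 1.24 ± 0.34 and 1.32 ± 0.08. Of the 16 Hippo brakes 6 were higher in all 3 vemurafenib pairs and 0 lower, against 18.4% and 18.1% of all genes. Their median of 0.41 was the highest of the 42 lists. In DMSO 8 of the 16 were higher in all 3 pairs and 1 lower, against 18.7% and 18.4% of all genes, with a median of 0.42. The 8 genes of the YAP, TAZ and TEAD list had a median of -0.42, with YAP1 at -0.81 ± 0.18 and TEAD1 at -1.23 ± 0.46, and none passed.

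The MAPK pathway carries the growth signal that vemurafenib blocks. Its brakes include NF1 and the LZTR1 ubiquitin ligase adaptor, which lower active RAS, SPRED1, which recruits NF1, and DUSP5, a nuclear ERK phosphatase. DUSP5 went from 86.4, 70.9 and 83.3 CPM to 281, 153 and 433 CPM. Its relative change was 1.54 in replicate 1, 1.53 in replicate 2 and 1.55 in replicate 3, against a mean of 0.63 ± 0.17 in DMSO. The guides of DUSP5 differed more under the drug. Guides 3 and 4 were at 2.34 and 2.60, and guides 1 and 2 at 0.13 and 0.52. NF1 went from 28.9, 45.9 and 33.2 CPM to 57.8, 161 and 75.9 CPM. The relative change of NF1 was 1.20 ± 0.07, and in DMSO it was -0.45 ± 0.74, where 1 pair was positive and 2 were negative. LZTR1 had 1.20 ± 0.41 and SPRED1 0.93 ± 0.23 under the drug. Of the 29 genes of the RAS and MAPK brake list 13 were higher in all 3 pairs and 0 lower, against 18.4% and 18.1% of all genes. The median of the list was 0.22. In DMSO 7 were higher in all 3 pairs and 5 lower, against 18.7% and 18.4% of all genes, with a median of 0.06. No gene of the list passed in either interval, and the difference between the intervals was tested only gene by gene.

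Genes that carry the RAS signal forward leaned the other way. GRB2, the adaptor that couples receptor tyrosine kinases to RAS activation, stood at 13.0, 14.9 and 9.32 CPM at day 8 and 3.88, 16.6 and 7.71 CPM at day 14. Guides 1 and 2 were down in all 3 pairs, guide 2 from 3.18, 1.46 and 1.12 CPM to 0.116, 0 and 0.0591 CPM. Guide 3 in replicate 2 held 16.6 CPM at day 14, and guide 4 was up, relative to all guides, in 2 pairs. These include replicate 2, where guide 4 went from 0.0117 to 0 CPM and counted as up only through the 0.5 added to counts. Through guide 3 the summed CPM of replicate 2 went up on the TMM scale, which is not a share of reads. The mean of log2 CPM relative to all genes was lower in each pair. The relative change of GRB2 was -1.91 ± 0.17 (adjusted p = 0.339, edgeR and rank aggregation). In DMSO GRB2 stood at 49.1, 47.8 and 23.2 CPM at day 8 and 79.3, 110 and 38.3 CPM at day 14, a relative change of 0.27 ± 0.15. The difference between the intervals was -2.24, -2.19 and -2.13 in the 3 pairs and did not pass (adjusted p = 0.328). SHOC2, a scaffold of the phosphatase that activates RAF, went from 16.0, 8.21 and 2.86 CPM to 8.84, 1.34 and 0.295 CPM. Its relative change was -2.72 ± 0.21 under the drug and -0.52 ± 0.38 in DMSO, and neither passed. BRAF itself stood at 8.27, 9.57 and 7.32 CPM at day 8 and 11.9, 21.8 and 8.54 CPM at day 14, a relative change of 0.11 ± 0.42 against -1.38 ± 0.64 in DMSO. The test of that difference did not pass (adjusted p = 0.854, edgeR and rank aggregation). BRAF guides 1, 2 and 4 stood at 0 to 1.74 CPM at day 8 of vemurafenib. The relative changes of guides 1 to 4 were 0.36, 0.49, 0.87 and -1.86. Of the 29 kinases and activators 3 were higher in all 3 pairs and 9 lower, against 18.4% and 18.1% of all genes, with a median of -0.31. In DMSO 2 of them were higher and 9 lower, against 18.7% and 18.4% of all genes, with a median of -0.28. Among receptor kinases EGFR had -1.76 ± 0.44, although its summed CPM on the TMM scale went up in 2 of 3 pairs.

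**Figure D3:**
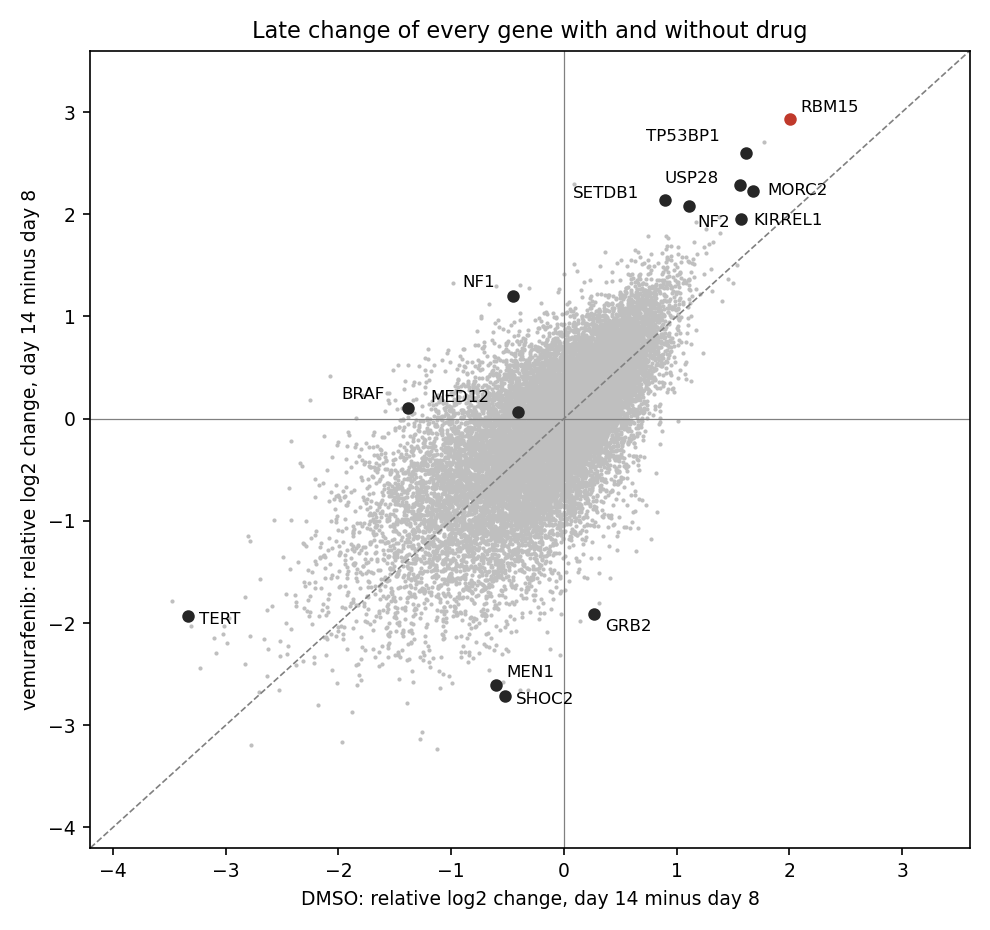
Relative log2 change from day 8 to day 14 in DMSO (horizontal axis) against that in vemurafenib (vertical axis), 1 grey point for each of the 19101 genes, named genes in black, RBM15 in red and the dashed line marking equal change. RBM15, TP53BP1, USP28 and MORC2 are high in both, NF1 is above 0 in vemurafenib and below 0 in DMSO, and GRB2, SHOC2 and MEN1 lie far below the line.

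Across all genes the mean change in vemurafenib and the mean change in DMSO correlated with r = 0.70 (19101 genes, which are not independent). Pairs with the same replicate number in the 2 arms correlated at 0.574 to 0.587, and pairs with different numbers at 0.216 to 0.230, so cells of the same number share much of their change in both arms. The test of the difference between vemurafenib and DMSO called 0 genes (0%) with edgeR and rank aggregation, 0 with DESeq2 and 0 with limma on centred scores, while 1010 genes had an unadjusted p under 0.05 by the first and 194 by the last. In the DMSO interval 7 genes were called (0.0366%): RBM15, KIRREL1, USP28 and MORC2 rose, and TERT, XRCC3 and TWNK fell. Without any single day-14 DMSO library, or without day-8 DMSO replicate 3, 1 of these genes rose and 0 fell. Only 1 fell when day-8 DMSO replicate 1 was left out, and counts summed per gene called 0. TERT, the catalytic subunit of telomerase, fell by 3.33 ± 0.07 on the log2 scale there (adjusted p = 0.0121) and stood at -1.93 ± 0.04 under the drug (adjusted p = 0.626, edgeR and rank aggregation). The lowest p values of the difference belonged to MRPS23, ZNF598 and TOX on the higher side (adjusted p from 0.21 to 0.765) and to GRB2, CLEC18C and OTUD7B on the lower side (0.328 to 0.765). MRPS23, a gene of the mitochondrial ribosome, had negative relative changes in both intervals, -1.24 ± 0.61 in vemurafenib and -1.99 ± 0.16 in DMSO.

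Several genes of other groups had large changes that did not pass. RB1, the brake on entry into S phase, went from 214, 107 and 153 CPM to 969, 417 and 414 CPM (1.85 ± 0.38, adjusted p = 0.187, edgeR and rank aggregation). SMARCA4 and SMARCD1, subunits of the BAF chromatin remodeller, had 1.53 ± 0.22 and 1.72 ± 0.44. MAP3K1, a kinase upstream of JNK, had 1.41 ± 0.31. ZC3H13, a further subunit of the m6A writer complex, had 1.55 ± 0.07 with 12 of 12 guide-pair combinations up, while the catalytic subunit METTL3 had 0.59 ± 0.09 and its partner METTL14 had -0.40 ± 0.22. Of the 15 m6A writers and readers 5 were higher in all 3 pairs and 2 lower, against 18.4% and 18.1% of all genes, with a median of 0.09. On the lower side MEN1, which encodes menin, a cofactor of MLL methyltransferases, had -2.61 ± 0.11 against -0.61 ± 0.52 in DMSO. The test of that difference did not pass. MEN1 guides 1 and 3 stood at 0.0274 to 0.983 CPM at day 8 of vemurafenib and at 0 in all 3 day-14 libraries. Their relative changes of -3.64 and -3.77 thus depend on the 0.5 added to counts. Guides 2 and 4 were at -0.84 and -2.75. SKP2, the ubiquitin ligase subunit that removes the cell-cycle inhibitor p27, had -2.87 ± 0.87, and JUN had -1.33 ± 0.30. VGLL1, TSPAN6 and HPGDS had the lowest p values on the lower side, with relative changes of -1.45 ± 0.35, -2.46 ± 0.26 and -2.16 ± 0.09 (adjusted p = 0.187, 0.191 and 0.338).

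No gene of the core machines passed, and their lists differed in how many members were lower in all 3 pairs, which held for 18.1% of all genes, or higher, which held for 18.4%. Of the 78 mitochondrial ribosome genes 33 were lower in all 3 pairs and 5 higher, with a median of -0.72, and MRPS35 stood at -2.26 ± 0.87. Of the 31 DNA replication genes 16 were lower and 3 higher, with a median of -0.76. The list of Elongator and tRNA wobble-uridine genes held 18 genes, among them the diphthamide synthesis genes DPH1, DPH2, DPH3, DPH5, DPH6 and DPH7. Its median of -1.17 was the lowest of the 42 lists, with 10 genes lower in all 3 pairs and 0 higher. DPH3, which serves both Elongator and diphthamide synthesis, stood at -1.55 ± 0.54. In DMSO 40 of the 78 mitochondrial ribosome genes were lower in all 3 pairs, against 18.4% of all genes. So were 15 of the 31 replication genes and 12 of the 18 genes of the Elongator, tRNA and diphthamide list. The DMSO medians of these lists were -0.83, -0.68 and -1.01. The 81 tested cytosolic ribosomal proteins had 16 lower and 8 higher and a median of -0.20, the 40 proteasome genes had 12 and 5 and a median of -0.33, and the 29 spliceosome genes had 8 and 2 and a median of -0.59. The 30 RNA polymerase genes had 7 lower and 3 higher, with a median of -0.28. Of the 52 genes of ATP synthase and cytochrome oxidase 11 were lower and 13 higher, with a median of 0.12. Complex I of the respiratory chain had 8 lower and 7 higher of 48 and a median of -0.04, and the cytosolic aminoacyl-tRNA synthetases, which charge tRNAs, had 4 lower and 4 higher of 20 and a median of 0.0029. In DMSO the synthetases had 10 lower and 1 higher, with a median of -0.51. ATP synthase and cytochrome oxidase had 18 lower and 10 higher there, with a median of -0.41. The DMSO medians of the ribosomal protein, proteasome, spliceosome, RNA polymerase and complex I lists were -0.33, -0.67, -0.55, -0.46 and -0.07. The difference between the intervals was not tested for any list. Under the drug PSMB3, a subunit of the proteasome core, stood at -2.78 ± 0.55 and RPL19 at -1.66 ± 0.32. RPL19 stood at 2.30, 3.57 and 5.83 CPM at day 8.

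**Figure D4:**
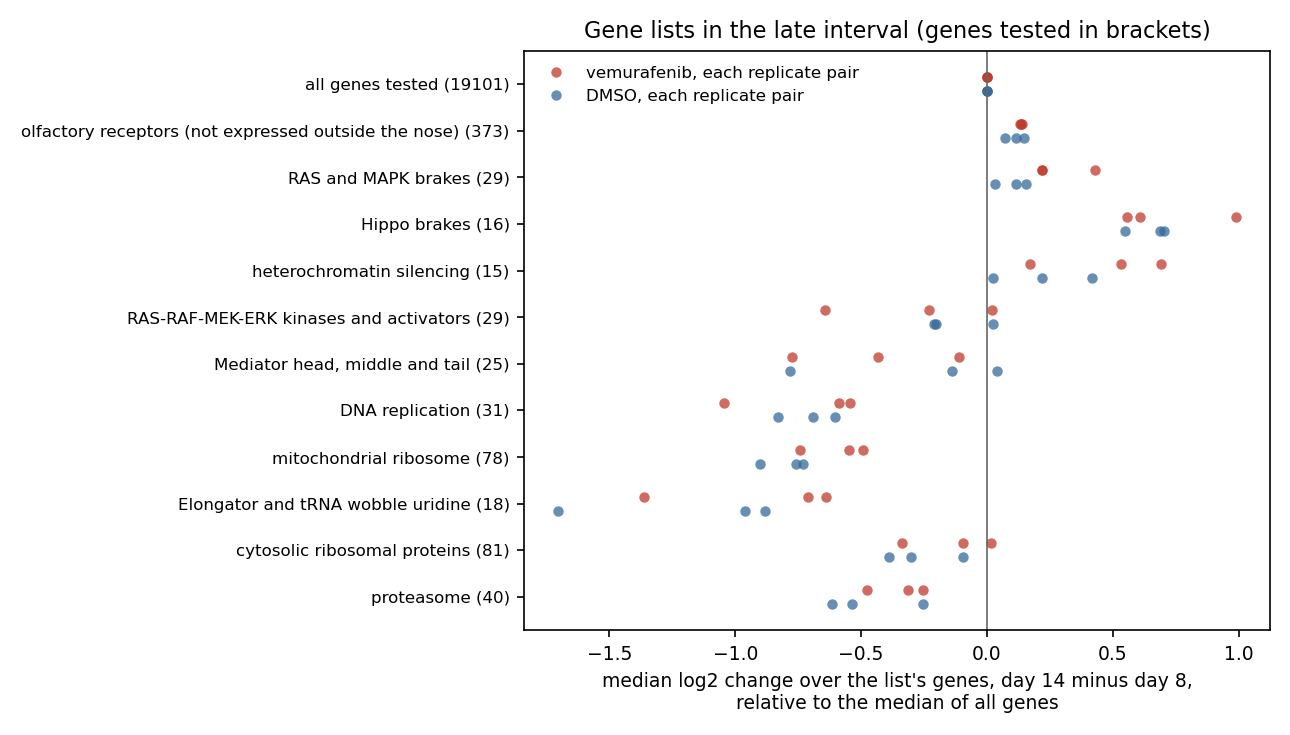
Median relative log2 change over the genes of several lists and of all genes (horizontal axis), with red points for each vemurafenib pair and blue points for each DMSO pair; brackets give the genes tested. The Hippo brakes lie right of 0 in all 6 pairs, and the mitochondrial ribosome, DNA replication and Elongator lists lie left of 0 in all 6.

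Mediator genes gave a check of the background. MED12 guides, in cells that already lacked MED12, stood at 34.2, 48.8 and 36.4 CPM at day 8 and 37.0, 54.8 and 44.6 CPM at day 14, a relative change of 0.06 ± 0.31. The MED12 value in DMSO was -0.41 ± 0.44. MED23, a tail subunit, had -0.87 ± 0.80, set mainly by replicate 3 at -2.45. Of the 25 head, middle and tail subunits 7 were lower in all 3 pairs and 1 higher, against 18.1% and 18.4% of all genes. Their median was -0.51. The 373 olfactory receptor genes, whose products serve smell and are hardly made outside the nose, had 77 higher and 52 lower in all 3 pairs and a median of 0.08. Guides without a target lay above gene-targeting guides by 0.491 ± 0.002 (difference of median log2 changes, SE over 3 pairs) and above olfactory receptor guides by 0.428 ± 0.019. In DMSO these differences were 0.360 ± 0.011 and 0.289 ± 0.008.

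The remaining lists held no called gene either: 41 of the 42 had none, and the m6A list had RBM15. SMAD4 had 0.41 ± 0.37 and CUL3, the scaffold of a ubiquitin ligase that degrades NRF2, had -0.55 ± 0.53. Over all genes 18.4% were higher in all 3 pairs and 18.1% lower, the background for the list counts that follow. In the list of losses tied earlier to BRAF inhibitor resistance 8 of 24 genes were higher in all 3 pairs and 2 lower, with a median of 0.18. In DMSO 10 of these 24 were higher in all 3 pairs and 4 lower, against 18.7% and 18.4% of all genes, with a median of 0.20. Under the drug the melanocyte lineage list (16 genes) had 1 higher (6.25%) and 3 lower (18.8%), the latter near the share of all genes. The median of that list was 0.32, with medians of -0.45, 0.39 and 0.22 in replicates 1, 2 and 3. PAX3 was at -1.03 ± 0.40 and SOX10 at 0.33 ± 0.50. The dedifferentiation list (19 genes) had 2 higher and 5 lower and a median of -0.46. Of the pro-death genes 2 of 18 were higher and 1 lower, and of the anti-death genes 2 of 13 were higher and 4 lower.

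The epigenetic library gave a separate view of the same interval, with 10 guides for each of 1115 genes and libraries of its own, 1089 of these genes being in both libraries. There 17 genes rose (1.52%) and 5 fell (0.448%) by the same test. TP53BP1 rose from 3648, 3001 and 3151 CPM to 11563, 8798 and 9121 CPM, a relative change of 1.43 ± 0.07 (edgeR and rank aggregation, adjusted p = 2.68e-10). SETDB1 rose by 1.62 ± 0.09, MPHOSPH8 by 1.29 ± 0.08, NF1 by 1.25 ± 0.13 and SMARCA4 by 1.10 ± 0.06. SMAD4, RB1, CDKN1B, KEAP1, SMARCD1, NF2, CDKN1A, MAP3K1, METTL14, PTPN14 and the helicase gene RAD54L2 rose by 0.68 to 1.03. KDM3B, SF3B1, TADA2A, TERT and RPL32 fell, with relative changes from -0.74 ± 0.08 for TERT to -1.53 ± 0.09 for SF3B1. These falls changed with the libraries used: without day-14 vemurafenib replicate 1 the test called 1 gene downward and 0 of these 5, without replicate 2 it called 3 and 1 of the 5, and without replicate 3 it called 6 and 1 of the 5. RBM15, USP28, MORC2 and KIRREL1 were not among its targets, and METTL3 (0.05 ± 0.06) and CUL3 (0.60 ± 0.15) did not pass there.

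**Figure D5:**
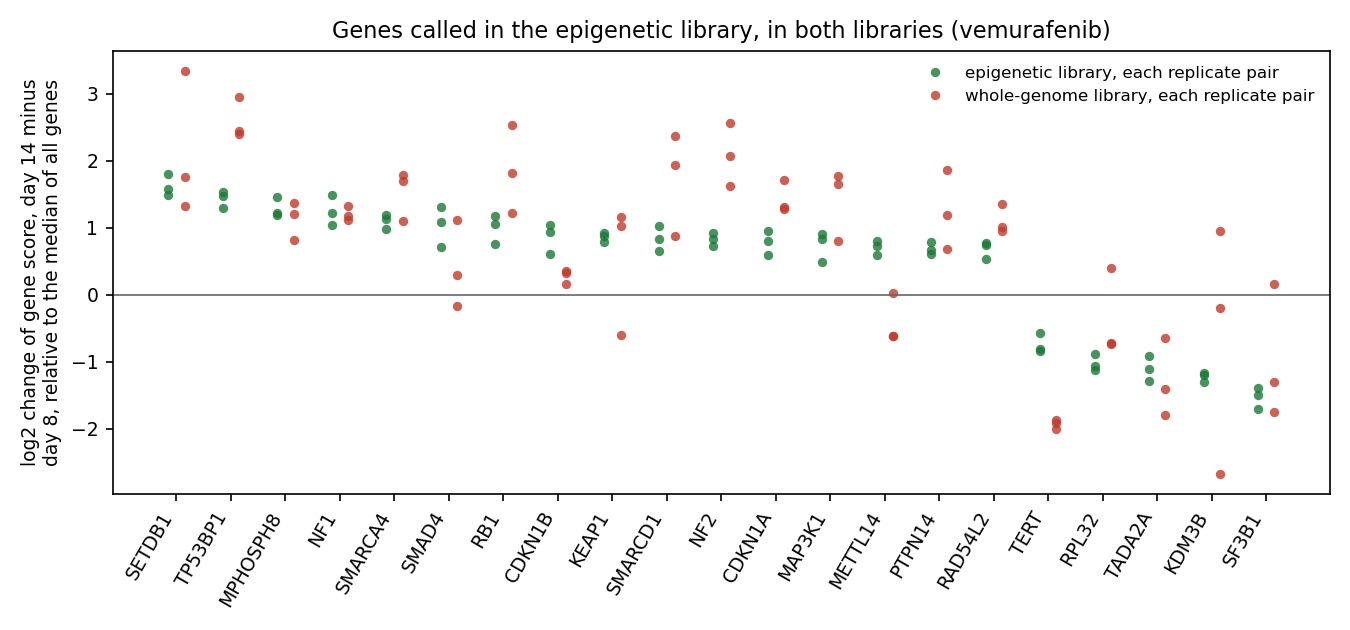
Relative log2 change from day 8 to day 14 of vemurafenib (vertical axis) for 21 of the 22 genes called in the epigenetic library, with green points for its 3 replicate pairs and red points for the 3 whole-genome pairs. Red points spread more than green ones for most genes, TP53BP1 is higher in red, and METTL14 is above 0 in green with 2 of 3 red points below 0.

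Of the 17 genes that rose in the epigenetic library 16 had a positive relative change in the whole-genome library, 14 in all 3 pairs, and 12 had an unadjusted p under 0.05 there. METTL14 was the exception. The 5 that fell were all negative in the whole-genome library, with 2 of them, TADA2A and TERT, negative in all 3 pairs. In all 21 of the 22 called genes (95.5%) had the same direction in both libraries, against 59.9% of the 1089 shared genes, whose changes correlated with r = 0.33 (Spearman's rho 0.29). Replicate pairs of the whole-genome library correlated with each other at 0.228 to 0.235 across genes, and those of the epigenetic library at 0.526 to 0.540.

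Reads became concentrated in few guides over the interval. The guides that together held the top 50% of reads numbered 18770 to 18940 at day 0, 10444 to 11265 at day 8 of vemurafenib, 5264 to 5820 at day 14 of DMSO and 2497 to 2801 at day 14 of vemurafenib. Guides at 0 numbered 1469 to 1717 at day 8 and 7338 to 7939 at day 14, in libraries of 73465751 to 87591804 and of 47766947 to 76715896 reads. The guides in the lead differed between replicates: of the 100 most abundant guides of each day-14 library 2 were shared by all 3 and 274 were in only 1. Between 60 and 71 of the 100 had been among the top 100 of the same replicate at day 8. Guide 2 of CHCHD10 held 0.404% of reads in replicate 1, 0.000151% in replicate 2 and 0.0172% in replicate 3 at day 14, while the other guides of CHCHD10 held at most 0.0108%. Guide 1 of CPZ held 0.159%, 0.0655% and 0.195%, and guide 4 of ETFBKMT held 0.00785%, 0.130% and 0.168%. Guide 1 of NF2 held 0.0375%, 0.00896% and 0.240%. The part of this concentration in the spread between replicates was not tested.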

How the data were processed

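For each screen the authors deposited 1 table of unnormalized counts, with guides in rows and libraries in columns. Per the submitters' processing notes, bcl2fastq, HISAT2 and HTSeq were used; neither their versions nor the guide reference is given in the sources used here. Guides were read from PCR products of genomic DNA, so reads are not independent molecules.

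The low-count filter of edgeR (filterByExpr, with minima of 10 per library and 15 in total) left 77158 of 77441 guides. The 15 libraries of the whole-genome table, in 5 groups of 3, were scaled with TMM and fitted in edgeR 4.0.16 (R 4.3.3) with 1 mean per group and the replicate number as a block. Guide p values were combined by robust rank aggregation (alpha 0.25) against its exact null, in both directions, for genes with at least 3 tested guides, and adjusted by Benjamini-Hochberg. Gene scores add 0.5 to each guide's count, divide by the TMM-scaled library size and take log2. A guide at 0 on both days in vemurafenib thus scores higher at day 14, where the scaled library size was smaller. Median shifts are subtracted because scaling moves all genes together. The scripts were tested on simulated data. Alternatives used limma 3.58.1 and DESeq2 1.42.0.

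The numbers pair the samples: deviations from group means correlated at 0.463 to 0.842 between same-numbered libraries (30 pairs) and at -0.449 to -0.212 between others (60 pairs).

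Named genes are the called ones, the 3 lowest p values of a direction without calls, up to 4 members of each list by lowest p, and the fixed set MED12, MED23, BRAF, NF1, NF2, CUL3, SETDB1, SMAD4, TP53BP1 and METTL3, plus genes called in the epigenetic library and the 5 leading guides. The members, lists and tests were chosen with earlier results of these data known. Symbols are those of the table. Results of 1 gene, and of a list built around it, are not reported here.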

Additional observations from a re-analysis of the deposited data

Results flagged for a closer look

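GRB2 moved opposite ways in the 2 arms relative to all genes. Its 3 vemurafenib pairs were all negative (-1.91 ± 0.17, SE, n = 3 pairs) and its 3 DMSO pairs all positive (0.27 ± 0.15), a difference of -2.19 ± 0.03. The test of the difference across all genes did not pass (edgeR and rank aggregation, adjusted p = 0.328). Such opposite movement was seen for 129 genes, 0.675% of those tested, and GRB2 was the only one among the 70 named genes. With groups of 3 no library could be tested as standing apart from its group.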

How the results depend on the processing

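RBM15 was called upward under late vemurafenib in 14 of the 15 alternatives; the exception was the fit without the replicate block, which called 0 genes in either direction, and 2 upward in DMSO. The number of rising genes was 2 with only the compared libraries (TP53BP1 joined), 3 with scaling on control guides (TP53BP1 among them), 2 with DESeq2 and 4 with limma on centred scores. The median log2 change of all genes was -0.17 in the reported fit. With limma on uncentred gene scores 13 genes rose and 931 fell (median -0.54), and with edgeR on counts summed per gene 854 rose and 17 fell (median 0.53). Other scalings also moved that median, to 0.05 with RLE factors and -1.27 with control guides. Without day-14 vemurafenib replicate 2 the calls were RBM15, MORC2, USP28 and NXF1 upward (4) and CNKSR3 downward (1); leaving out the other libraries gave 1 and 0. Both NXF1 and CNKSR3 were picked after their values were seen.

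In DMSO limma on gene scores gave 2 up and 117 down, limma on centred scores 1 up, summed counts 0 and 0, and only the compared libraries 1 down. Leaving out 1 library gave 1 to 4 up and 0 to 4 down, with 1 up and 0 down without any single day-14 library or without day-8 replicate 3, and 1 down without day-8 replicate 1. The difference between vemurafenib and DMSO called 0 genes in each alternative. In the epigenetic library limma gave 35 up and 126 down (58 and 75 on centred scores), summed counts 493 and 3, only the compared libraries 9 down and control scaling 2 down. Leaving out 1 library there gave 10 to 21 up and 1 to 6 down, with 10 and 3 without day-14 replicate 2 and 1 down without day-14 replicate 1. The cause of these changes was not tested. Of 1050 values of 70 named genes under the alternatives, 58 passed the threshold where the reported value did not, 1 was lost, and 0 called values turned sign. For 14 of the genes the sign against the median of all genes changed in some alternative while uncalled. At day 14 of vemurafenib 9.48% to 10.3% of guides were at 0, and a guide at 0 has only a bound on its fall.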

Other observations

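In the RB and G1 list RB1 was at 1.85 ± 0.38 and SKP2 at -2.87 ± 0.87. NDUFA2, of the complex I list, was at 1.21 ± 0.24, and ISCA2, of the separate list of iron-sulfur cluster assembly, was at -1.87 ± 0.34. In the list of CUL3, KEAP1 and NRF2, NEDD8, the ubiquitin-like protein that activates cullins, was at -2.29 ± 0.77, and KEAP1 at 0.53 ± 0.56, with pairs at 1.16, 1.02 and -0.60. In the pro-death list DIABLO, an antagonist of inhibitor-of-apoptosis proteins, was at 1.17 ± 0.41, and in the anti-death list XIAP, one of those inhibitors, was at -0.91 ± 0.39. None of these passed the test. SUPT7L, a subunit of the SAGA coactivator, was at 1.04 ± 0.25 in vemurafenib and 0.92 ± 0.17 in DMSO, while MED26 of Mediator was at -1.24 ± 0.22 and -1.12 ± 0.20. MVD, an enzyme of cholesterol synthesis, was at -1.39 ± 0.23 in vemurafenib and 0.12 ± 0.34 in DMSO (difference -1.51 ± 0.11, adjusted p = 0.893 by edgeR and rank aggregation).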
